A study of Mus musculus with 4 samples.

Results

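The Hsd3b family encodes hydroxysteroid dehydrogenases, and 6 of its genes other than the bile acid enzyme Hsd3b7 (Hsd3b1 to Hsd3b6) were named on a mouse oligonucleotide array. Their probes were chosen by the gene name in the array files, which gave 6 of 27962 gene names and 8 of 41174 probes that are not controls: 3 for Hsd3b2 and 1 for each other gene. The livers came from male C57BL/6 mice on a high-fat diet that had received Plin2 antisense oligonucleotide (4 mice) or a scrambled control oligonucleotide (4 mice), at 25 mg/kg for 4 weeks with 2 abdominal injections a week. Antisense oligonucleotides are short modified nucleic acids that bind a transcript and lower its level, and Plin2 coats the lipid droplets of hepatocytes. Each of the 4 arrays set 1 liver labelled Plin2-ASO (mice 6, 7, 9 and 10 on arrays 1 to 4, in green, Cy3) against 1 control liver (mice 1, 2, 4 and 5, in red, Cy5).

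The family turns hydroxysteroids such as pregnenolone and dehydroepiandrosterone into ketosteroids with a double bond moved into the ring beside the ketone, a step on the way to every active steroid hormone. In mice the genes lie side by side, and they differ by tissue: Hsd3b1 is the form of the adrenal and the gonads, Hsd3b2 and Hsd3b3 are forms of liver and kidney, and Hsd3b6 is known from placenta, skin and the adrenal. The products of Hsd3b4 and Hsd3b5 work chiefly in the other direction, as reductases that inactivate ketosteroids with NADPH. Hsd3b5 is a liver form known for high levels in males and low levels in females, a difference set by the pattern of growth hormone release.

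The probes that carry the largest differences, and the 3 Hsd3b2 probes that did not read alike, are shown here 5′ to 3′ as the array files give them. All have 60 bases. Their mm7 positions come from the array files. Which exon or untranslated part each covers was not looked up, since no annotation of mm7 was used here. Capitals mark the 31 bases that the Hsd3b6 probe and 1 of the Hsd3b2 probes share at matching positions of a 39-base overlap (79.5% identity, longest identical run 9 bases). No probe on the array shared a run of 16 bases with any of the 8. Transcripts of these genes are alike in sequence, so binding of a close relative to any of these probes cannot be told apart from binding of the named transcript.
Hsd3b5, A_51_P496162, chr3:98414360-98414419, minus strand: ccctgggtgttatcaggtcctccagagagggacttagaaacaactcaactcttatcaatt
Hsd3b4, A_51_P352005, chrUn_random:1163191-1163250, plus strand: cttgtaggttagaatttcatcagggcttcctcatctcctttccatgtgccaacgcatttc
Hsd3b6, A_52_P253567, chr3:98601948-98602007, minus strand: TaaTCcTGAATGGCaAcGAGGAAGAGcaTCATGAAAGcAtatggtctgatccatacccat
Hsd3b2, A_52_P339759, chr3:98507615-98507674, minus strand: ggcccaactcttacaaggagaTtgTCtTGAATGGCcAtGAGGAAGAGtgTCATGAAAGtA
Hsd3b2, A_51_P226567, chr3:98506611-98506670, minus strand: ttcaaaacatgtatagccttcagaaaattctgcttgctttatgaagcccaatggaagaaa
Hsd3b2, A_52_P318447, chr3:98505782-98505841, minus strand: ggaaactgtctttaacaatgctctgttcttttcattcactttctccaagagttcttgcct

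The 250 bases before the annotated transcription start were read from RefSeq (GRCm38.p6) for the members. They are shown for Hsd3b5 and Hsd3b4, which had the highest ratios. Capitals mark matches to motifs chosen after the promoters were read: CAAAGTNCA, a form of the HNF4 motif, and TTAATNATT, from the core of the HNF1 motif, each searched on both strands. The first was found before 1.19% of 32851 annotated starts and the second before 1.4%. The capitals in Hsd3b4 hold 3 overlapping matches of the second, on either strand, and no match of one motif overlapped one of the other.
Hsd3b5, chr3:98645535-98645784, minus strand: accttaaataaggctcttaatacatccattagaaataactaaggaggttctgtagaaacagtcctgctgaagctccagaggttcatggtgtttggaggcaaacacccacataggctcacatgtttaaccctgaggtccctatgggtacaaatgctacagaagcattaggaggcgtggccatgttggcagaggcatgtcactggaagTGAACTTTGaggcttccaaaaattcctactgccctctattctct
Hsd3b4, chr3:98510473-98510722, minus strand: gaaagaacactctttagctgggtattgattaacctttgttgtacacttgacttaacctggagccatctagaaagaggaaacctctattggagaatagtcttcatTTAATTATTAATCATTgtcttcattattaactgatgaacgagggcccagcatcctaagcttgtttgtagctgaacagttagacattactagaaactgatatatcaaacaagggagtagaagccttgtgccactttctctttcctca

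Upstream of Hsd3b5 and of the downstream one of the 2 annotated starts of Hsd3b3, 153 of 200 aligned bases were identical (76.5%). No other pair of member genes had 100 or more alignable bases there. The aligned stretch of 30 bases around the HNF4 motif is shown for both, since the motif lies just before the annotated start of Hsd3b5 (first base 44 bases before it) and its counterpart lies just after the annotated start of Hsd3b3. Counted from 1 at the 5′ end, with the Hsd3b5 base first, the differences were A13G, G21A, A29G and A30C. The A13G change falls on the free position N, so the Hsd3b3 stretch matches the motif as well. The STAT5 motif TTCNNNGAA, on both strands, was found before 7.02% of starts and among the members before that of Hsd3b1 only. A TATAAA box, on both strands, was found before 12.4% of starts and in no member. A match describes letters and not a bound site, and a missing match says nothing of the factor.
Hsd3b5, chr3:98645559-98645588, minus strand: tcactggaagTGAACTTTGaggcttccaaa
Hsd3b3, chr3:98762388-98762417, minus strand: tcactggaagTGGACTTTGaagcttccagc

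Levels are normalized log2 signals, which can be compared between livers for 1 probe but not between probes. Ratios are log2 of Plin2-ASO over control on the same array, so a positive value means higher in the liver labelled Plin2-ASO. The oligonucleotide's target was read first. Plin2 (named Adfp in the files, chromosome 4) had levels of 13.96, 13.89, 14.32 and 13.71 in the livers labelled Plin2-ASO on arrays 1 to 4, against 13.71, 13.73, 13.49 and 13.34 in the control livers. The livers labelled Plin2-ASO thus did not have less of it (mean log2 ratio 0.40 ± 0.15, SE, n = 4 arrays, adjusted p = 0.148 by limma), so the target does not bear out the labels or the dyes. All directions given here rest on those labels and would be mirrored if they were exchanged. Each group was in a single dye on every array, so a dye effect of a probe and the treatment cannot be told apart. In bulk liver RNA, fewer cells of a type and less RNA per cell cannot be told apart either.

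The arrays were uneven. Median spot signals were 244 to 499 in green and 256 to 637 in red, over local backgrounds of 55.0 to 58.5 and 62.0 to 63.5. The log2 ratios of 2 arrays correlated across probes at r of 0.15 to 0.82, lowest on array 3, which also had the most outlier spots (7.61%, against 1.50% to 3.83% on the others). No spot was saturated. Precision is limited by the 4 arrays.

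Most of the Hsd3b probes gave a higher signal in the livers labelled Plin2-ASO. At an adjusted p under 0.05, 6 of the 8 probes rose and 0 fell (limma, Benjamini-Hochberg over 25843 probes; at an unadjusted p under 0.05, 7 rose and 0 fell), covering Hsd3b2, Hsd3b3, Hsd3b4, Hsd3b5 and Hsd3b6. Of all probes tested, 4.35% rose and 5.64% fell at the adjusted threshold, 9.99% in either direction. The share of all probes at the unadjusted threshold was not counted, here or for the gene lists and markers below. All 8 probes were well above background in both groups on all 4 arrays and passed the filter on dim probes. The median log2 ratio of the 8 was 1.16, against -0.01 for all probes. On 7 of the 8 the ratio was positive on all 4 arrays, which held for 16.4% of all probes, and for 6 of the 8 each liver labelled Plin2-ASO lay above each control liver, which held for 6.75%. Without array 2 the number of member probes that rose was 3, and without array 1, 3 or 4 it was 4, 6 and 6. The count over all 25843 probes moved as well. It was 1124 with all 4 arrays, 239 without array 2, and 259, 3746 and 637 without array 1, 3 or 4.

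**Figure D1:**
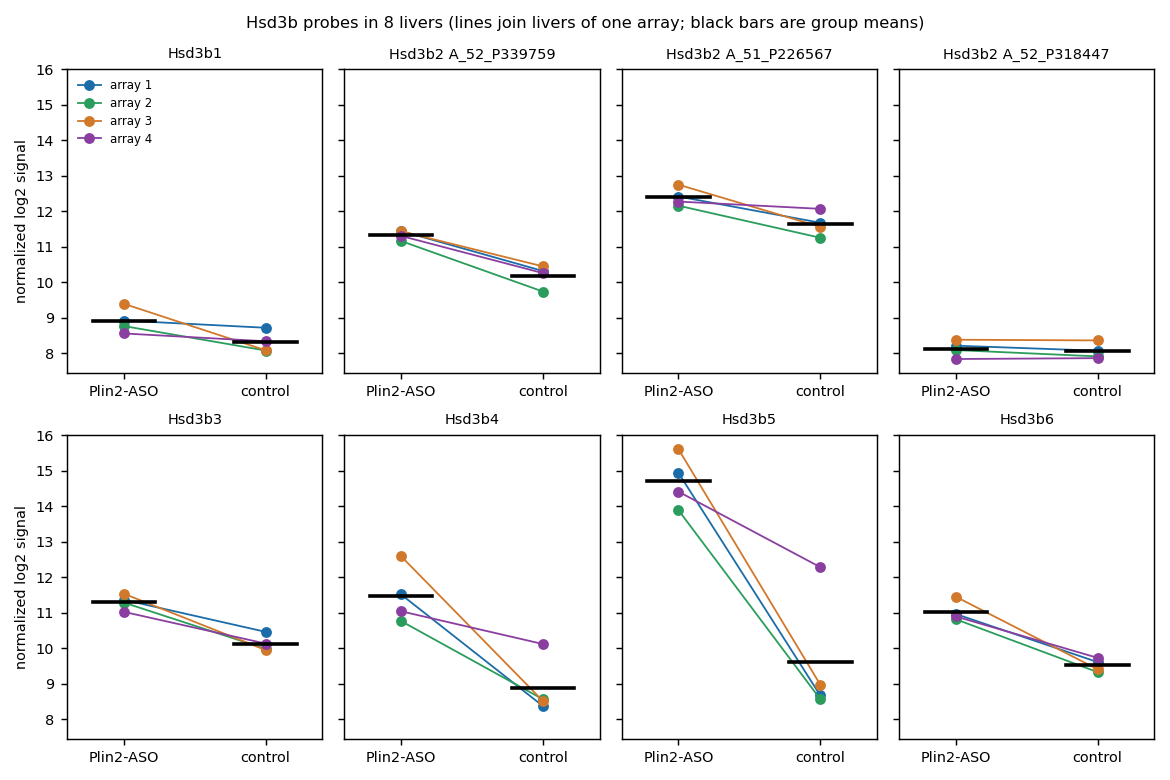
Normalized log2 signal of each Hsd3b probe (vertical axis) in the 4 livers labelled Plin2-ASO and the 4 control livers; each coloured line joins the livers of an array and black bars are group means. The control liver of array 4 stands at 12.29 for Hsd3b5 and 10.12 for Hsd3b4, above the other 3 control livers.

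Hsd3b5, the male-biased liver reductase, had the highest mean ratio of all probes tested. Before normalization its spot read 26344, 18222, 38274 and 32271 in green (Plin2-ASO) on arrays 1 to 4, against 411, 257, 980.0 and 3971 in red (control). Its normalized levels were 14.94, 13.89, 15.61 and 14.41 in the livers labelled Plin2-ASO and 8.67, 8.57, 8.97 and 12.29 in the control livers. The groups did not overlap. The livers labelled Plin2-ASO were all high, 3 control livers were low and close together, and the control liver of array 4 (mouse 5) lay between. The log2 ratios were 6.27, 5.33, 6.64 and 2.13, with a mean of 5.09 ± 0.66 (SE, n = 4; 34.1-fold, 95% interval 11.7 to 99.4; adjusted p = 0.00535 by limma). Without array 4 the mean was 6.08 (adjusted p = 0.000299 by limma). Without array 1, 2 or 3 the mean was 4.70 (adjusted p = 0.0290), 5.01 (0.0385) and 4.58 (0.00105).

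Hsd3b4, the other reductase, had the next highest ratio of the family, rank 34 of all probes. Its levels were 11.52, 10.77, 12.59 and 11.04 in the livers labelled Plin2-ASO, against 8.37, 8.56, 8.51 and 10.12 in the control livers. As for Hsd3b5, the groups did not overlap and the control liver of array 4 was the highest of its group. The mean log2 ratio was 2.59 ± 0.44 (SE, n = 4; 6.02-fold, adjusted p = 0.0138 by limma), from 0.92 on array 4 to 4.08 on array 3. The call ended without array 1 (adjusted p = 0.0732) or without array 2 (0.0658). The position of this probe in mm7 was on unplaced sequence of the assembly, while RefSeq places Hsd3b4 on chromosome 3 near Hsd3b5 and gives Hsd3b4 as an older name of a neighbour, Gm10681. A further probe on that unplaced sequence, for the predicted transcript LOC673307, passed the background mark in only 2 livers labelled Plin2-ASO and 1 control liver and was not tested.

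Hsd3b6 rose as well, with the least variation relative to its mean among the 3 highest members. Its levels were 10.97, 10.82, 11.45 and 10.90 in the livers labelled Plin2-ASO and 9.61, 9.33, 9.41 and 9.73 in the control livers. The groups were apart by more than the range within either. The mean log2 ratio was 1.51 ± 0.17 (SE, n = 4; 2.86-fold, adjusted p = 0.00347 by limma), and the highest adjusted p with any 1 array left out was 0.0326.

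Hsd3b3, a form of liver and kidney, had levels of 11.37, 11.29, 11.54 and 11.03 in the livers labelled Plin2-ASO, against 10.46, 9.98, 9.95 and 10.13 in the control livers. The groups did not overlap, and in both the livers lay close together. The mean log2 ratio was 1.17 ± 0.16 (SE, n = 4; 2.25-fold, adjusted p = 0.00673 by limma), and without array 2 the adjusted p was 0.0570. A probe that the files call 9030618K22Rik and the reference calls Hsd3b3 had ratios of 0.94, 0.76, -0.13 and 0.16 and did not pass (mean 0.43 ± 0.20, adjusted p = 0.212 by limma). It was no member by the name in the files. The array holds these 2 probes for this gene, and they did not give the same call.

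The 3 probes of Hsd3b2, the other form of liver and kidney, read differently. Probe A_52_P339759, which overlaps the Hsd3b6 probe in sequence, had levels of 11.45, 11.16, 11.44 and 11.31 in the livers labelled Plin2-ASO and 10.32, 9.74, 10.45 and 10.26 in the control livers. Its groups did not overlap, and its mean log2 ratio was 1.15 ± 0.14 (SE, n = 4; 2.21-fold, adjusted p = 0.00393 by limma). Probe A_51_P226567, the brightest, had levels of 12.42, 12.16, 12.75 and 12.28 in the livers labelled Plin2-ASO, against 11.68, 11.26, 11.56 and 12.07 in the control livers. Here the lowest liver labelled Plin2-ASO, at 12.16, was close to the highest control liver, at 12.07, and the mean log2 ratio was 0.76 ± 0.18 (SE, n = 4; 1.69-fold, adjusted p = 0.0394 by limma). This call ended without array 1 (adjusted p = 0.179) or array 2 (0.200), with the software's own ratios (0.0554), with the series table (0.0621) and with no filter (0.0517).

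Probe A_52_P318447 of the same gene had the levels 8.22, 8.09, 8.38 and 7.84 in the livers labelled Plin2-ASO and 8.07, 7.91, 8.36 and 7.86 in the control livers, overlapping throughout. Its mean log2 ratio was 0.08 ± 0.12 (SE, n = 4, adjusted p = 0.728 by limma). It lies 1833 bases from probe A_52_P339759 in mm7, and the difference between the ratios of these probes was 1.07 ± 0.13 (SD over arrays, n = 4), the same way on 4 of 4 arrays (exact sign-flip permutation test, two-sided p = 0.125, the smallest that 4 arrays can give). With a background offset of 16 in place of 50 the mean log2 ratio was 0.09 for A_52_P318447 and 1.18 for A_52_P339759.

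Hsd3b1, the form of steroid-making glands, did not pass. Its levels were 8.92, 8.77, 9.40 and 8.56 in the livers labelled Plin2-ASO, against 8.72, 8.08, 8.08 and 8.34 in the control livers. The groups overlapped, although the ratio was positive on each array. The mean log2 ratio was 0.61 ± 0.20 (SE, n = 4; 1.52-fold, 95% interval 1.09 to 2.12; adjusted p = 0.107 by limma). With array quality weights, which give array 3 the least weight, it passed (0.42, adjusted p = 0.0280).

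**Figure D2:**
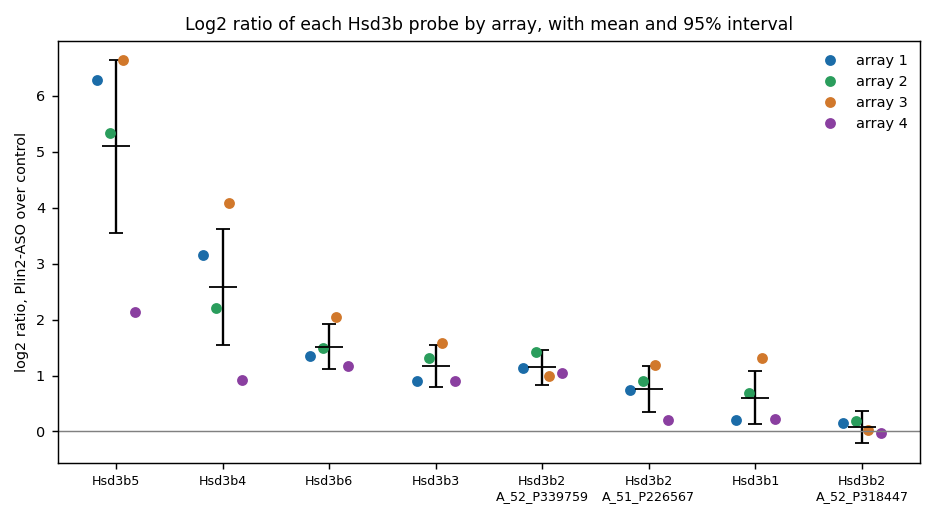
Log2 ratio of Plin2-ASO over control (vertical axis) for each Hsd3b probe on the 4 arrays, with the limma mean and its 95% interval in black. Hsd3b5 lies highest at 5.09 and the Hsd3b2 probe A_52_P318447 lowest at 0.08, and array 4 gives the lowest point for 6 of the 8 probes.

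By the brightest probe of each gene, the mean ratio was highest for Hsd3b5, then Hsd3b4, Hsd3b6, Hsd3b3, Hsd3b2 and Hsd3b1, while the dimmest Hsd3b2 probe lay below Hsd3b1. The 95% intervals of neighbours in this order overlapped throughout: 3.55 to 6.64 for Hsd3b5, 1.55 to 3.63 for Hsd3b4, 1.12 to 1.91 for Hsd3b6, 0.80 to 1.55 for Hsd3b3, 0.34 to 1.18 for Hsd3b2 and 0.13 to 1.08 for Hsd3b1. On array 4 Hsd3b6 (1.17) was above Hsd3b4 (0.92). The ratio of Hsd3b5 exceeded that of the brightest probe of each other member on all 4 arrays. The mean difference in log2 ratio was 2.50 ± 0.91 against Hsd3b4, 3.58 ± 1.80 against Hsd3b6 and 3.92 ± 1.88 against Hsd3b3 (SD, n = 4 arrays). It was 4.33 ± 1.68 against Hsd3b2 and 4.49 ± 1.81 against Hsd3b1. Each of these 5 comparisons had an exact two-sided permutation p of 0.125, raw and adjusted, which is the smallest that 4 arrays allow, so this test could not place any of them under 0.05. The t-based 95% interval of the mean difference was 1.06 to 3.94 against Hsd3b4 and 0.71 to 6.44 against Hsd3b6. Arrays differed in the same way for most members: 6 of 8 probes had their highest ratio on array 3 and 6 of 8 their lowest on array 4, and the median ratio of the 8 was 1.02, 1.36, 1.45 and 0.91 on arrays 1 to 4. How many of all probes have this order was not counted. Over all probes tested, the ratio correlated with the share of G and C bases in the probe at r of 0.04, 0.07, -0.30 and 0.25 on arrays 1 to 4. The part of the arrays in the order was not tested.

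Hsd3b7, the family's enzyme of bile acid synthesis, lies on chromosome 7 and not in the cluster. It was well above background in both groups on all 4 arrays. Its levels were 13.86, 14.49, 14.86 and 14.41 in the livers labelled Plin2-ASO and 14.04, 14.28, 14.29 and 14.60 in the control livers. The groups overlapped (mean log2 ratio 0.10 ± 0.17, SE, n = 4, adjusted p = 0.736 by limma; 95% interval -0.29 to 0.49).

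Few of the other probes around the cluster were called. The 7 member probes placed on chromosome 3 in mm7, for 5 genes, span 233 kb, and a further 24 probes lie within 500 kb of them, including the 9030618K22Rik probe that the reference names Hsd3b3. Of the 24, 13 were tested, of which 1 rose and 1 fell, near the shares over all probes (4.35% and 5.64%). The transcript AK083287, with no gene symbol, rose by a log2 ratio of 0.85 (adjusted p = 0.0249 by limma). Hao2 (Hao3 in the files), an oxidase of hydroxy fatty acids whose probe lies 22.3 kb beyond that of Hsd3b1, fell. Its log2 ratios were -2.04, -1.16, -1.53 and -1.13, a mean of -1.47 (adjusted p = 0.00457 by limma). No liver labelled Plin2-ASO had it well above background, and its measured mean level there was 6.34, against 7.81 in the control livers. It was at least 1.46-fold lower, a bound set by the dimmest signals above background.

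**Figure D3:**
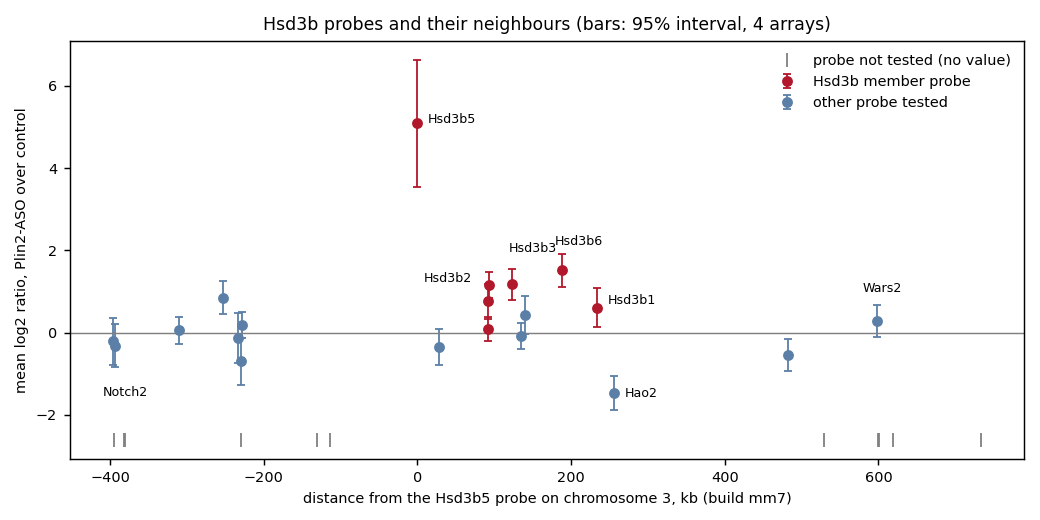
Mean log2 ratio of Plin2-ASO over control (vertical axis, 95% interval, 4 arrays) against the distance in kb from the Hsd3b5 probe on chromosome 3, for Hsd3b probes (red) and other probes (blue); grey ticks are probes that were not tested. Hsd3b5 stands at 5.09, the other Hsd3b probes lie between 0.08 and 1.51, and Hao2 at the far side of Hsd3b1 is at -1.47.

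Other genes of steroid metabolism were called in both directions. A list of 47 genes of steroid synthesis, inactivation and reception held 44 genes with a probe, of which 37 were tested, each by its brightest kept probe. Of these, 5 rose and 1 fell (13.5% and 2.7%), against 3.89% and 6.38% of the 18045 genes tested (10.3% in either direction), and the median log2 ratio was 0.28, against -0.03 for all genes. At an unadjusted p under 0.05 by limma, 13 rose and 2 fell. The share of all genes at that threshold was not counted. The enzyme Hsd17b2, which inactivates estradiol and testosterone, had levels of 13.56, 13.20, 13.97 and 13.07 in the livers labelled Plin2-ASO and 12.23, 12.43, 12.52 and 12.43 in the control livers. The groups did not overlap, and it rose 2.07-fold (log2 ratio 1.05 ± 0.18, SE, n = 4, adjusted p = 0.0128 by limma).

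Srd5a1, a reductase that makes dihydrotestosterone and also clears glucocorticoids, rose 2.87-fold (1.52 ± 0.28, adjusted p = 0.0183 by limma). Hsd17b10, a mitochondrial dehydrogenase of steroids and of branched fatty acyl chains, rose 1.69-fold (0.76 ± 0.14, adjusted p = 0.0179). Fdx1, the electron carrier of mitochondrial cytochromes P450, rose 1.86-fold (0.90 ± 0.22, adjusted p = 0.0455). The remaining gene that rose, Hsd11b1, which regenerates active glucocorticoid, passed narrowly (0.72 ± 0.18, adjusted p = 0.0489). With array 1 or array 2 left out, 0 of the 37 passed by limma in either direction (9 rose each time at an unadjusted p under 0.05, and 1 and 2 fell), and without array 3, 14 rose and 1 fell. Over all 25843 probes, 259 rose without array 1, 239 without array 2 and 3746 without array 3, against 1124 with all arrays.

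Sult1e1, the sulfotransferase that inactivates estrogens, was the gene that fell. Its levels were 7.59, 8.68, 9.08 and 7.58 in the livers labelled Plin2-ASO, against 9.36, 10.49, 9.52 and 10.80 in the control livers. The groups did not overlap, with a mean log2 ratio of -1.81 ± 0.38 (SE, n = 4; 3.51-fold lower, adjusted p = 0.0272 by limma). Cyp7b1, a male-biased hydroxylase of oxysterols and of dehydroepiandrosterone singled out after its values were seen, had ratios of 3.20, 1.81, 3.71 and -0.81 and did not pass (adjusted p = 0.101 by limma).

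**Figure D4:**
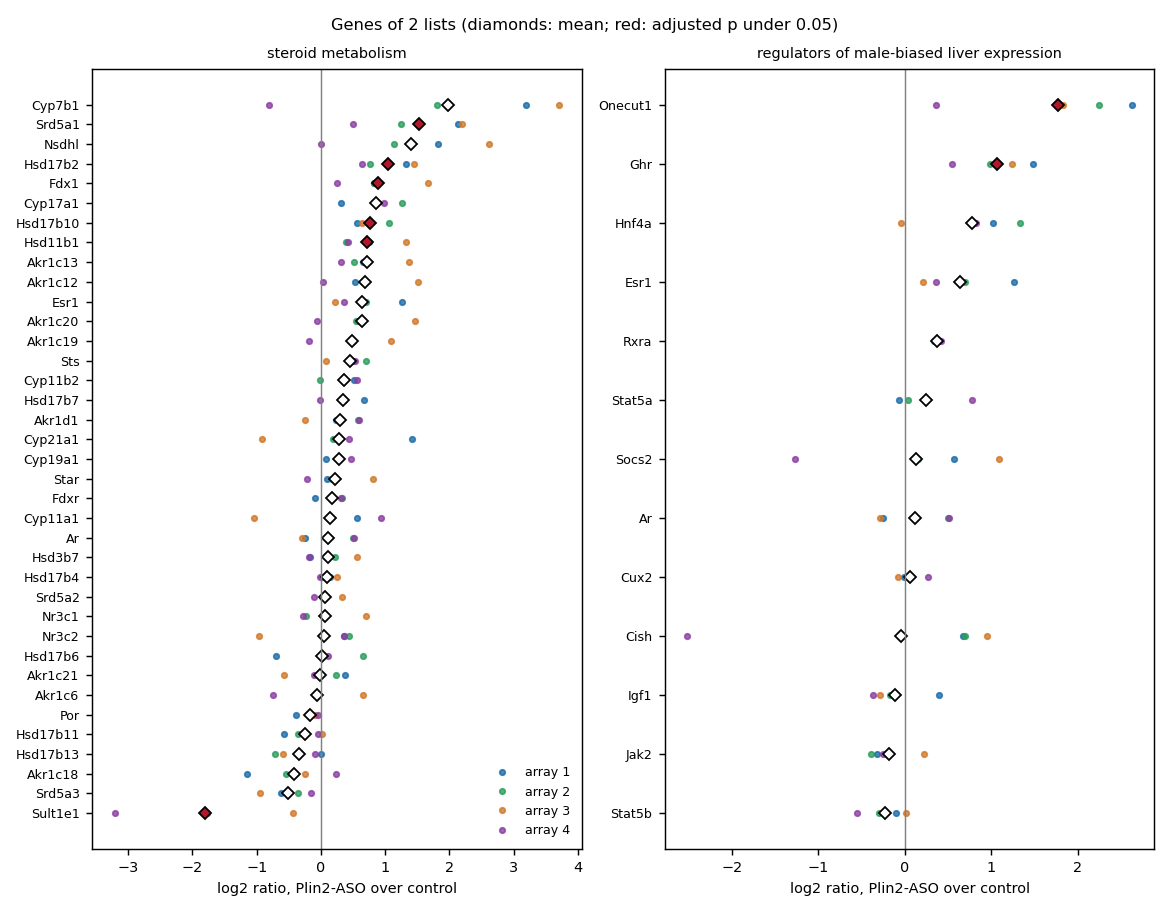
Log2 ratio of Plin2-ASO over control (horizontal axis) of each tested gene of the steroid metabolism list (left) and of the list of regulators (right), with points for the 4 arrays and a diamond for the mean, red where the adjusted p is under 0.05. Of the 37 steroid genes 31 were not called and the median is 0.28, with Srd5a1 at 1.52 and Sult1e1 at -1.81 among those called. On array 4 Cish and Socs2 lie far to the left of their other points.

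Regulators known for the sex-biased expression of liver genes were read from a list of 14 genes, 13 of them tested. Of these 2 rose and 0 fell (15.4% and 0%, against 3.89% and 6.38% of all genes tested), and the median log2 ratio was 0.13. At an unadjusted p under 0.05 by limma, 5 rose and 0 fell, and the share of all genes at that threshold was not counted. Ghr, the growth hormone receptor, had levels of 15.60, 14.96, 15.47 and 14.90 in the livers labelled Plin2-ASO and 14.12, 13.97, 14.23 and 14.36 in the control livers. The groups did not overlap, and it rose 2.09-fold (1.06 ± 0.18, SE, n = 4, adjusted p = 0.0122 by limma), while 3 further probes read 0.27 to 1.35. Onecut1, a transcription factor of hepatocytes known in rats to respond to growth hormone, rose 3.41-fold (1.77 ± 0.34, adjusted p = 0.0201 by limma), with 1 further probe at 0.45; its groups overlapped, with the lowest liver labelled Plin2-ASO at 11.82 and the highest control liver at 12.11. With array 1 or array 2 left out, 0 of the 13 rose by limma (3 and 4 did at an unadjusted p under 0.05), without array 3, 5 rose, and without array 4, 3 rose. The counts over all 25843 probes were 259, 239, 3746 and 637 without array 1, 2, 3 or 4.

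Socs2 and Cish, feedback inhibitors that growth hormone induces through STAT5, are given for the difference between arrays and were singled out after their values were seen. The ratios of Cish were 0.67, 0.70, 0.96 and -2.52 on arrays 1 to 4, and its level on array 4 was 8.70 in the liver labelled Plin2-ASO, against 11.22 in the control liver. The ratios of Socs2 were 0.57, 0.15, 1.09 and -1.27 (mean 0.13), and 1 further probe of it had a mean of -0.44. Cish and Socs2, by these probes, were thus reversed on the array on which Hsd3b5, Hsd3b4 and Cyp7b1 had their lowest ratios. The list as a whole was not: the median ratio of the 13 regulators was 0.39, 0.35, 0.22 and 0.36 on arrays 1 to 4. Igf1, singled out as well, had ratios of 0.39, -0.17, -0.29 and -0.37. The part of these regulators in the Hsd3b values was not tested.

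Genes whose 4 ratios lay closest to those of a member were found among 12668 named genes by the root mean square difference of the log2 ratios over the 4 arrays. For Hsd3b5 they were the organic anion transporter Slco1a1 (0.894), Mup5 (0.973), Mup4 (1.13) and Mup1 (1.36) of the major urinary proteins, and the carboxylesterase Ces1f (1.38). For Hsd3b4 they were the sulfotransferase Sult1b1 (0.457), Mup3 (0.488), Immp2l (0.571), Susd4 (0.586) and Dct (0.655). For Hsd3b6 they were Ptprg (0.123), Vps41, Hibadh, Slc2a5 and Rnf130 (0.196). For Hsd3b3 they were Ptprd (0.085), Ccdc17, Hopx, Npr3 and Prkcz (0.160), and for the brightest Hsd3b2 probe Chsy3 (0.033), Gbe1, Lrit1, Zfp36l1 and Cpeb2 (0.119). The measure describes 4 points that share arrays and dyes, and few genes reach ratios as large as those of Hsd3b5.

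Markers of other tissues were read beside these values, with summed levels on the log2 scale over the markers measured on all 4 arrays. The brightest probes weigh most in each sum, so it describes those probes and is not the level of a cell type. Hepatocyte markers were present in all livers. Of 8 tested, 2 fell (25%, Alb at -1.70 and Apob at -0.61) and 0 rose, against 6.38% and 3.89% of all genes tested. At an unadjusted p under 0.05 by limma, 4 fell and 1 rose (Hnf4a at 0.78). Their summed level, over 7 of the 8, was 18.55 to 18.97 in the livers labelled Plin2-ASO and 19.36 to 19.47 in the control livers. Of 12 markers of steroid-making glands, where Hsd3b1 and Hsd3b6 are also found, 11 had a probe, 9 were tested and 0 were called (1 rose and 1 fell at an unadjusted p under 0.05 by limma). Their summed level, over 6 of the 9, was 12.29 to 12.70 in the livers labelled Plin2-ASO and 12.28 to 12.78 in the control livers. Mrap, with mean levels of 11.94 and 11.88, weighed most in it. The marker that rose at the unadjusted threshold was Cyp17a1 (0.85), measured on 3 arrays and not in the sum. The marker that fell was Insl3 (-0.53). Cyp11a1, Cyp17a1, Cyp21a1, Cyp11b2, Mc2r, Mrap and Insl3 were well above background in both groups on all 4 arrays. Star and Nr5a1 were so in 2 livers labelled Plin2-ASO and 3 control livers each, and Nr0b1 and Lhcgr in no liver.

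Of 6 kidney tubule markers 5 were tested and 0 were called (1 rose and 0 fell at an unadjusted p under 0.05 by limma). Their summed level was 10.78 to 11.46 in the livers labelled Plin2-ASO and 10.62 to 11.35 in the control livers. Slc34a1, Slc5a2 and Kap were well above background in both groups on all 4 arrays. Lrp2 and Slc22a6 were so in only some livers of each group, and Umod in none. Of 5 adipocyte markers tested, Cfd rose (log2 ratio 3.78) and 0 fell (1 rose and 0 fell at an unadjusted p under 0.05 by limma). Fabp4 had ratios of -2.17, -1.70, 1.69 and -1.16 (mean -0.84). The means of Adipoq, Plin1 and Lep were 1.25, 0.26 and 0.02, and none of these was called. The summed level of the 5 was 12.72 to 16.01 in the livers labelled Plin2-ASO and 13.72 to 14.62 in the control livers. Array 3 had their highest median ratio, 1.96, while arrays 1, 2 and 4 had -0.17 to 0.20. The part of any of these markers in the Hsd3b values was not tested.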

How the data were processed

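Liver RNA of 4 mice labelled Plin2-ASO and 4 control mice was measured on 4 arrays of 2 colours, all on 1 slide and from 1 scan; each array was 1 replicate. The labels call these biological replicates. Per the file headers, Feature Extraction 9.5.1.1 read the spot intensities. The deposited mean signals and local background medians, before any background subtraction or dye normalization, were used. The deposited log10 ratios (red over green, after the software's processing) and the log2 ratios of the authors' series matrix, equal to them after conversion, served as alternatives with their sign turned. Spot marks (background, saturation and outlier) are those deposited with the arrays.

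In limma, normexp (offset 50) was applied to the background, then loess to the ratios of each array with control spots at weight 0 (limma 3.58.1, R 4.3.3, data.table (version 1.17.8), statmod 1.5.0). Levels are the single channels after Aquantile normalization. Outlier spots were set to missing. Probes well above background on at least 3 of 4 arrays in 1 channel (27160 of 41174) and measured on at least 3 arrays (25843) were tested: lmFit with an intercept, eBayes, two-sided, Benjamini-Hochberg over all probes at 0.05. Every adjusted p of a probe is from this fit over the whole array, and intervals are at 95%.

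The members, gene lists, markers and tests were chosen with earlier results of these data known. Named genes are all members, Hsd3b7, Plin2, the 4 called genes with the smallest p in each direction of each list, and the 5 genes nearest to each called member; others are marked as singled out. The Hsd11b1 value and the neighbours' values were likewise chosen after they were seen. Alternatives covered the background correction, offset, normalization, filter, outliers, variance model, array weights, separate channels, 1 probe per gene, the threshold and each array left out. Symbols came from RefSeq (GRCm38.p6), with 22951 probes matched by accession, 6659 by symbol and 3109 by an older symbol, while 8455 kept the name in the file. Its promoters are also from RefSeq and were matched for all 6 genes.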

Additional observations from a re-analysis of the deposited data

Results flagged for a closer look

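In 4 livers a value was singled out when its gap to the nearest of the others was large relative to the group's range (Dixon's test at 95%; chance gives about 1 in 20 groups, and 54 sets of 4 values were tested). This held for 2 member probes, both in the control liver of array 4 (mouse 5). As a count, 2 of 54 sets is no more than the 1 in 20 that chance gives. For Hsd3b5 that liver had a log2 level of 12.3, against 8.57 to 8.97 in the other 3 control livers. For Hsd3b4 it had 10.1, against 8.37 to 8.56. Over all 23332 probes measured on all arrays, the control liver of array 4 stood out as the highest of its group in 0.694% and as the lowest in 0.48%. These shares are for 1 liver, looked up after the flags were seen. Among the 4 control livers they ran from 0.403% to 1.2% for the highest and from 0.21% to 1.68% for the lowest.

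The genes nearest to Hsd3b5 in ratio were chosen in part by a low ratio on array 4, so a high control level there is no independent finding. Slco1a1 was at 9.63, against 7.38 to 8.17 in the other control livers. Mup5 was at 15.27, against 11.65 to 13.12. Cyp7b1 and Cish, which are not among the nearest genes and were picked after their values were seen, were at 15.83, against 13.17 to 13.51, and at 11.22, against 9.33 to 9.87. The values are those of the control liver of array 4 against the other 3, and no reason for the level of this liver was tested.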

How the results depend on the processing

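The number of Hsd3b probes that rose stayed between 5 and 7 under the 15 alternatives other than leaving out an array, and was 3 to 6 with each array left out; the replicate block (separate channels with the intraspot correlation, 0.15) gave 6. The Hsd3b5 ratio lay between 5.04 and 5.40 under the 15 and between 4.58 and 6.08 with an array left out. All 8 member probes kept a positive mean log2 ratio under every setting that included them, and Hsd3b2 probe A_52_P318447 passed under none of these. The steroid list was less stable. Its count of genes that rose (5) was 3 with the series table, with no filter, with outlier spots kept and with trend and robust, 8 with scaling between arrays, 9 with the replicate block, 10 at an adjusted p under 0.1, 17 with array quality weights and 0 to 14 with an array left out. Its count that fell (1) was 0 with no filter (2 at an unadjusted p under 0.05 by limma), 2 at an adjusted p under 0.1, 4 with array quality weights and 0 to 1 with an array left out. The regulators that rose (2) were 5 with array quality weights and 5 at an adjusted p under 0.1, and 0 to 5 with an array left out; 1 fell with array quality weights. Over all probes, 1124 rose and 1458 fell, against 4467 and 5508 with array quality weights, 259 and 304 without array 1, 239 and 269 without array 2, 3746 and 4934 without array 3, and 637 and 827 without array 4. Of 27160 probes, 910 rose and 1121 fell with the series table, and 963 and 1299 with outlier spots kept. With no filter 1088 rose and 1408 fell of 39851, and with the replicate block 1273 and 1847 of 23332. Of 25843, 1046 rose and 1386 fell with trend and robust, and 1345 and 1665 with scaling between arrays. At an adjusted p under 0.1 by limma, 2041 rose and 2443 fell. The cause of these shifts was not tested.

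The limits are the 4 arrays, the single dye per group, a target gene that was not lower, and sequence shared within the family.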
